A study of Mus musculus with 4 samples.

Results

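Complement components and receptors were examined in bulk RNA of 4T1Ch9 mammary tumors, a mouse model of triple-negative breast cancer (TNBC). The 9 listed genes were the chains of C1q (C1qa, C1qb and C1qc), the components C2, C3 and C4b, complement factor B (Cfb), and the receptors of the C3a and C5a peptides (C3ar1 and C5ar1). A probe set, which is a group of short probes read as 1 value, was taken as a member where one of these was its only gene symbol in the annotation of the array. This gave 11 probe sets of 8 genes, out of 17097 genes named in this way. C3 was not analysed here. C3ar1 had 3 probe sets, C5ar1 had 2 and each other gene had 1, and where there were several, the brightest over all arrays stood for the gene.

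Complement is a cascade of plasma and tissue proteins that tags cells and debris and calls in phagocytes. The classical pathway starts when C1q, built from A, B and C chains, binds a target. Its partner protease C1r then activates C1s, which cleaves C4 and C2. The alternative pathway uses factor B. Both form enzymes that cleave C3, after which the small fragments C3a and C5a act on leukocytes through their G protein-coupled receptors. The liver makes most plasma complement, whereas C1q comes mainly from macrophages and immature dendritic cells, and tissue macrophages in tumors are a well known local source of it.

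The 4T1Ch9 line is tagged with cherry and of Balb/c origin, and 50000 cells were injected into the mammary fat pad of young adult female wild-type Balb/c mice. Tumors grew for 10 days, and mice then received by mouth, daily for 7 days, either vehicle (polyethylene glycol and solutol) or trametinib, an inhibitor of the kinases MEK1 and MEK2 (MEKi), at 1 mg/kg in the same vehicle. Each group is represented by 2 Affymetrix 430PM arrays of whole tumor RNA, so the RNA of the injected cells and of host cells was read together, and fewer cells of a type and less RNA per cell cannot be told apart. Nothing in the sources used here says that arrays of one group are from separate mice. The p-values therefore cover only the spread among these arrays, and that spread may be technical.

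The arrays did not fall together by label, and each is therefore named by its label throughout. Pearson's r over the 45037 tested probe sets (genes, not replicates) was 0.992 between MEKi 1 and vehicle 2 and 0.978 between MEKi 2 and vehicle 1, against 0.927 between both MEKi arrays and 0.959 between both vehicle arrays. B cell genes had median log2 expression of 9.73 in MEKi 1 and 9.37 in vehicle 2, but 4.17 in MEKi 2 and 4.17 in vehicle 1. Target genes of the MAPK pathway were lowest in MEKi 1 (median 7.61) and highest in MEKi 2 (median 9.70), with 9.29 in vehicle 1 and 8.36 in vehicle 2. No label was changed, and which tumors were treated was not tested. The values are log2 intensities after RMA, and the medians of the arrays lay between 4.98 and 5.14 with 25th percentiles between 3.85 and 3.88, and readings near the latter are taken as the floor.

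The C1q chains ran in parallel, with vehicle 1 highest and MEKi 1 lowest. C1qa read 11.33 in MEKi 1 and 12.00 in MEKi 2, against 12.57 in vehicle 1 and 11.65 in vehicle 2 on the log2 scale. C1qb read 10.91, 11.83, 12.36 and 11.39 in the same arrays. C1qc read 11.02, 11.78, 12.48 and 11.49. In each chain the arrays of both labels alternated, since MEKi 2 lay between vehicle 1 and vehicle 2, so the groups overlapped. From MEKi 1 to vehicle 1 the level differed 2.37-fold for C1qa, 2.73-fold for C1qb and 2.75-fold for C1qc. When each chain was set relative to its own mean, the chains lay within 0.15 log2 units of each other in every array, and within 0.04 in vehicle 2. The genes of the chains are direct neighbours on the mouse genome, with 0 protein-coding genes between C1qb and C1qc and 0 between C1qc and C1qa in the RefSeq table.

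**Figure D1:**
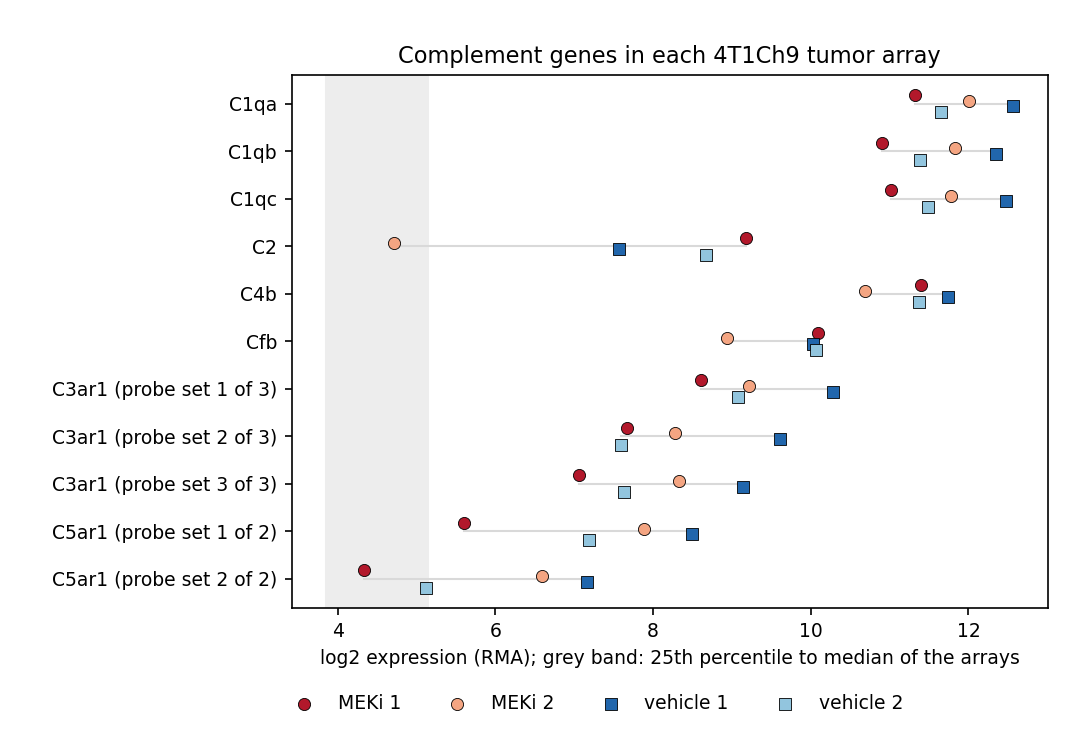
Log2 expression (RMA, horizontal axis) of the 11 complement probe sets as measured in the 4T1Ch9 tumors. Points are single arrays (circles, MEKi; squares, vehicle) on a grey band from the 25th percentile to the median of the arrays. Vehicle 1 lies furthest to the right for the C1q chains, C4b, C3ar1 and C5ar1 on the values as deposited, and MEKi 2 lies furthest to the left for C2 (4.72), C4b and Cfb.

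The components of the C3-cleaving enzymes had a different order, with MEKi 2 lowest. C2, the classical pathway protease that joins C4 fragments, read 9.18 in MEKi 1 and 4.72 in MEKi 2, against 7.57 in vehicle 1 and 8.67 in vehicle 2. The MEKi arrays were therefore the highest and the lowest of the 4 and lay 22.1-fold apart as read. C2 had the widest range of the 8 genes, at 4.47 log2 units. The reading in MEKi 2 lay between the 25th percentile (3.88) and the median (4.98) of that array, so close to the floor that this fold and range may understate the difference in RNA.

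Cfb, the protease of the alternative pathway, read 10.10 in MEKi 1 and 8.94 in MEKi 2, against 10.03 in vehicle 1 and 10.06 in vehicle 2. The vehicle arrays and MEKi 1 lay within 0.07 log2 units, and MEKi 2 lay below MEKi 1 by 1.15. C4b, which encodes the component C4, read 11.40 in MEKi 1 and 10.69 in MEKi 2, against 11.74 in vehicle 1 and 11.38 in vehicle 2. MEKi 2 was again lowest, but vehicle 1 was highest. C4b has a near-identical copy, C4a, which was not analysed here, and whether the C4b probes also read C4a transcripts was not tested. C2 and Cfb are direct neighbours with 0 protein-coding genes between them, and 5 lie between C4b and Cfb.

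The receptor genes followed the order of the C1q chains. C3ar1, whose product binds C3a on myeloid cells, read 8.61 in MEKi 1 and 9.21 in MEKi 2, against 10.28 in vehicle 1 and 9.08 in vehicle 2. Its other probe sets also had vehicle 1 highest, at 9.61 and 9.14. The lowest array was vehicle 2 in one of them (7.59) and MEKi 1 in the other (7.06). C5ar1, whose product draws neutrophils and macrophages towards C5a, read 5.60 in MEKi 1 and 7.89 in MEKi 2, against 8.49 in vehicle 1 and 7.19 in vehicle 2. Its second probe set read 4.34, 6.59, 7.17 and 5.13, which is the same order. MEKi 1 and vehicle 1 lay 7.41-fold apart for C5ar1 and 3.18-fold apart for C3ar1, and vehicle 1 exceeded vehicle 2 by 1.30 and 1.20 log2 units.

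Of the 8 genes, 6 were highest in vehicle 1, where 21.6% of all probe sets were. MEKi 1 was lowest in 5 (27.6% of all probe sets) and MEKi 2 in 3 (27.1%), and 5 had both vehicle 1 highest and MEKi 1 lowest (8.99%). The range over the 4 arrays was above 1 log2 unit in 8 of 8, against 22% of all probe sets and 28.9% of those at least as bright as the dimmest of the 8 genes. The order depended on the scaling. Centring each array on reference genes left vehicle 1 highest in 6, MEKi 1 lowest in 5 and MEKi 2 lowest in 3. The median of tumor epithelial genes was lowest in MEKi 2 (6.54, against 7.89 to 8.25 in the other arrays). In MEKi 2 that median is the reading of Epcam, and the genes were not alike. Of the 11, 6 were lowest in MEKi 2 and 5 in MEKi 1. Centring on this median put MEKi 2 highest in 7 of 8 complement genes and left C2 as the gene with MEKi 2 lowest.

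Promoters are shown for members that shared the order of the C1q chains and have an entry in the RefSeq promoter table, which holds 4 of the 8 genes (C1qb, C1qc, C3ar1 and C5ar1). Each is 250 bases before the start of the gene on build GRCm38.p6, written 5′ to 3′ on the strand of the gene, with matches to 6 searched motifs in capitals.
C1qb, chr4:136886201-136886450, minus strand: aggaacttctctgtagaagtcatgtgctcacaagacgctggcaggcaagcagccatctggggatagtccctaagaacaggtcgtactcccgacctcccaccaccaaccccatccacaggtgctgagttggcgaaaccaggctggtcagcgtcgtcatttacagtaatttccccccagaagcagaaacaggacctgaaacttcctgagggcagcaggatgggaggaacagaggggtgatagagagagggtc
C1qc, chr4:136892915-136893164, minus strand: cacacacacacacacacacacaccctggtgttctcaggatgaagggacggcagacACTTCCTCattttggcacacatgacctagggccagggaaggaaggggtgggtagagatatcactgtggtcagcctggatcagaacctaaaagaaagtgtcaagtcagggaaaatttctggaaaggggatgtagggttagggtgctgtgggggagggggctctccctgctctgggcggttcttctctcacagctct
C3ar1, chr6:122856158-122856407, minus strand: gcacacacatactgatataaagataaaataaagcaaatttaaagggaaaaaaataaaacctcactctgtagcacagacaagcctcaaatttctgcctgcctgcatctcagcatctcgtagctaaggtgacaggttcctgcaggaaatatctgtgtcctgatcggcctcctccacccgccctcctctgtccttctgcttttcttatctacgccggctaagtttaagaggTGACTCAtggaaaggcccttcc
C5ar1, chr7:16259339-16259588, minus strand: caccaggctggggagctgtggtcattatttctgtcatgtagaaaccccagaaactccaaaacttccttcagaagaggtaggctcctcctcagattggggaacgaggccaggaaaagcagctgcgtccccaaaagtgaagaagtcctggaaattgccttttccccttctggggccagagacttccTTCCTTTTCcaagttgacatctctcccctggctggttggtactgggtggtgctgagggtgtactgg

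Motifs were searched on both strands. They were the gamma-activated site of STAT factors (TTCNNNGAA), a part of the interferon-stimulated response element (GAAANNGAA), a part of the κB site (GGANTTTCC), a C/EBP site (TTGCNNAA), an AP-1 site (TGANTCA) and a site of the myeloid factor PU.1 (GAGGAAGT). The 4 promoters held 3 matches in all, 1 each in C1qc, C3ar1 and C5ar1, with 0 in C1qb, and no motif occurred in more than 1 of them. In C1qc the PU.1 letters lay on the opposite strand 195 to 188 bases before the start, and 2.44% of 32851 promoter windows of this length hold them. In C3ar1 the AP-1 letters lay 22 to 16 bases before the start (6.75% of windows). In C5ar1 the letters of the response element lay on the opposite strand 66 to 58 bases before the start (7.13% of windows), and they overlap no other match. The shares were 7.02% for the gamma-activated site, 1.07% for the κB letters and 9.56% for C/EBP. A match is a description of these letters and not of a bound site.

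MEKi was compared with vehicle to ask how 7 days of treatment changed gene expression in the tumor. By label, 0 of the 8 complement genes were called with limma, and 0 reached an unadjusted p under 0.05. Calls required an adjusted p (Benjamini-Hochberg) under 0.1 together with an unadjusted p under 0.05 and more than a 1.5-fold difference. Over all probe sets limma called 0 (0%), and 406 (0.901%) had an unadjusted p under 0.05. The mean of the MEKi arrays was below that of the vehicle arrays in 8 of 8 genes, against 47.2% of all probe sets, and the median log2 difference was −0.56 against 0.01 over all probe sets. Without moderation of variances 0 genes were called as well. With 2 arrays against 2, an exact permutation test cannot go below p = 0.333.

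The log2 difference of MEKi minus vehicle with limma was −0.45 (SE 0.45, adjusted p = 1) for C1qa, −0.50 (SE 0.51, adjusted p = 1) for C1qb and −0.59 (SE 0.48, adjusted p = 1) for C1qc. It was −1.17 (SE 1.69, adjusted p = 1) for C2, −0.51 (SE 0.33, adjusted p = 1) for C4b and −0.53 (SE 0.45, adjusted p = 1) for Cfb. The receptor genes C3ar1 and C5ar1 had differences of −0.77 (SE 0.52, adjusted p = 1) and −1.10 (SE 0.98, adjusted p = 1). In 8 of 8 genes the difference was smaller than the larger gap between arrays of 1 label, as in 87% of all probe sets. In 0 of 8 did both MEKi arrays lie above both vehicle arrays (12.1% of all probe sets), and in 0 of 8 did both lie below (9.86%).

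Single arrays set the sign of some differences. Without MEKi 2 the difference was 1.07 for C2 and 0.051 for Cfb. Without vehicle 1 it was 0.013 for C1qa, and without MEKi 1 it was 0.046 for C5ar1. The median over the 8 genes was −0.33, −0.87, −0.25 and −0.95 without MEKi 1, MEKi 2, vehicle 1 and vehicle 2 in turn. Centring on tumor epithelial genes moved the median of all probe sets from 0.01 to 1.01 and that of the complement genes from −0.56 to 0.44, with C2 (−0.17) and C5ar1 (−0.10) still below 0.

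**Figure D2:**
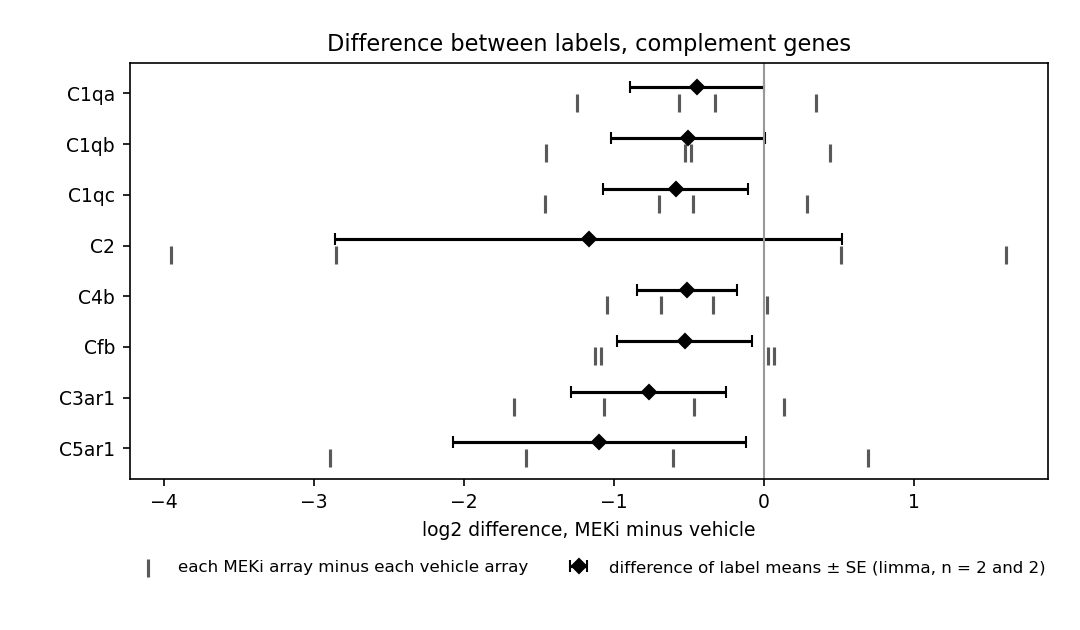
Log2 difference of MEKi minus vehicle (horizontal axis) for each complement gene, with a diamond for the difference of label means and its SE (limma, 2 arrays for each label) and ticks for each MEKi array minus each vehicle array. Ticks lie on both sides of 0 for all 8 genes, and for C2 they run from −3.95 to 1.62. Centring on tumor epithelial genes turns 6 of the diamonds above 0.

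Most macrophage genes had vehicle 1 highest, as did the C1q chains and the receptors. Medians over the 16 measured of 17 listed macrophage and monocyte genes were lowest in MEKi 1 (8.28) and highest in vehicle 1 (10.51), with 9.65 in MEKi 2 and 9.29 in vehicle 2 between them. Of the 16, 14 were highest in vehicle 1 and 10 lowest in MEKi 1. Csf1r, the receptor that macrophages need for survival, read 9.56, 10.41, 10.76 and 9.94 in these arrays. Marco, a scavenger receptor of some macrophages, ran the other way and was highest in MEKi 1 (5.82), with 4.77 in vehicle 2 and readings near the floor in MEKi 2 (3.71) and vehicle 1 (3.83). Mertk, a receptor for apoptotic cells, was highest in MEKi 2 (8.56) and lowest in vehicle 2 (7.57). The median of the list ranged over 2.23 log2 units and the mean of the C1q chains from 11.08 in MEKi 1 to 12.47 in vehicle 1. Relative to the list, each centred on its mean, the C1q chains were 0.50 higher in MEKi 1 and 0.34 lower in vehicle 1, and C5ar1 was 0.54 lower in MEKi 1. These differences ranged over 0.84 log2 units for the mean of the C1q chains, 0.76 for C3ar1 and 0.92 for C5ar1. Relative to the fibroblast list they ranged less for the C1q chains (0.43) and C3ar1 (0.42), and more for C5ar1 (1.93). The fibroblast median joins genes of different orders, since 3 of 10 were lowest in MEKi 1 and 5 of 10 in MEKi 2. The part of macrophage content in the levels of the complement genes was not tested.

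Of the other cell types, some had other orders, and the part of each in the complement values was not tested. C2, Cfb and C4b were lowest in MEKi 2, as were 27.1% of all probe sets. So were 10 of 10 T cell genes, 6 of 7 adipocyte genes, 8 of 12 interferon-inducible genes and 6 of 11 tumor epithelial genes. The same held for 5 of 10 fibroblast, 3 of 6 blood vessel, 3 of 16 macrophage and 1 of 9 neutrophil genes. It also held for 5 of 8 B cell genes and 4 of 7 genes of lymph node stroma and high endothelium. Those 2 lists were low in both MEKi 2 (medians 4.17 and 3.82) and vehicle 1 (4.17 and 3.66). In vehicle 1, C2, Cfb and C4b read 7.57, 10.03 and 11.74. Interferon-inducible genes had medians of 10.50 and 9.90 in the MEKi arrays (1 and 2) and 10.79 and 10.10 in the vehicle arrays. Relative to them, each centred on its mean, C4b stayed within 0.29 log2 units and Cfb within 0.50 in every array, whereas C2 lay 2.39 lower in MEKi 2 and 1.47 higher in MEKi 1. Relative to the tumor epithelial genes in the same way, Cfb stayed within 0.34. In MEKi 2, C4b lay 0.57 higher than these genes and C2 lay 1.64 lower. Epcam, an epithelial adhesion protein, read 6.54 in MEKi 2 and between 8.79 and 9.23 in the other arrays. The keratin genes Krt8 and Krt18 instead shared the order of the C1q chains. Krt8 ran from 12.92 (vehicle 1) through 12.11 (MEKi 2) and 11.75 (vehicle 2) down to 10.54 (MEKi 1). Krt18 ran from 12.78 through 11.87 and 11.78 down to 10.43 along the same arrays. Of the 11 tumor epithelial genes, 4 peaked in vehicle 1 and 6 in vehicle 2. Neutrophil genes had medians of 7.46, 6.66, 6.17 and 6.68 in MEKi 1, MEKi 2, vehicle 1 and vehicle 2, and 5 of 9 were highest in MEKi 2. Blood vessel genes were highest in vehicle 1 in 4 of 6. Their medians, 8.01, 9.02, 9.28 and 8.35 in the same arrays, had the order of the C1q chains. The reference genes stayed within 0.12 log2 units by their medians.

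**Figure D3:**
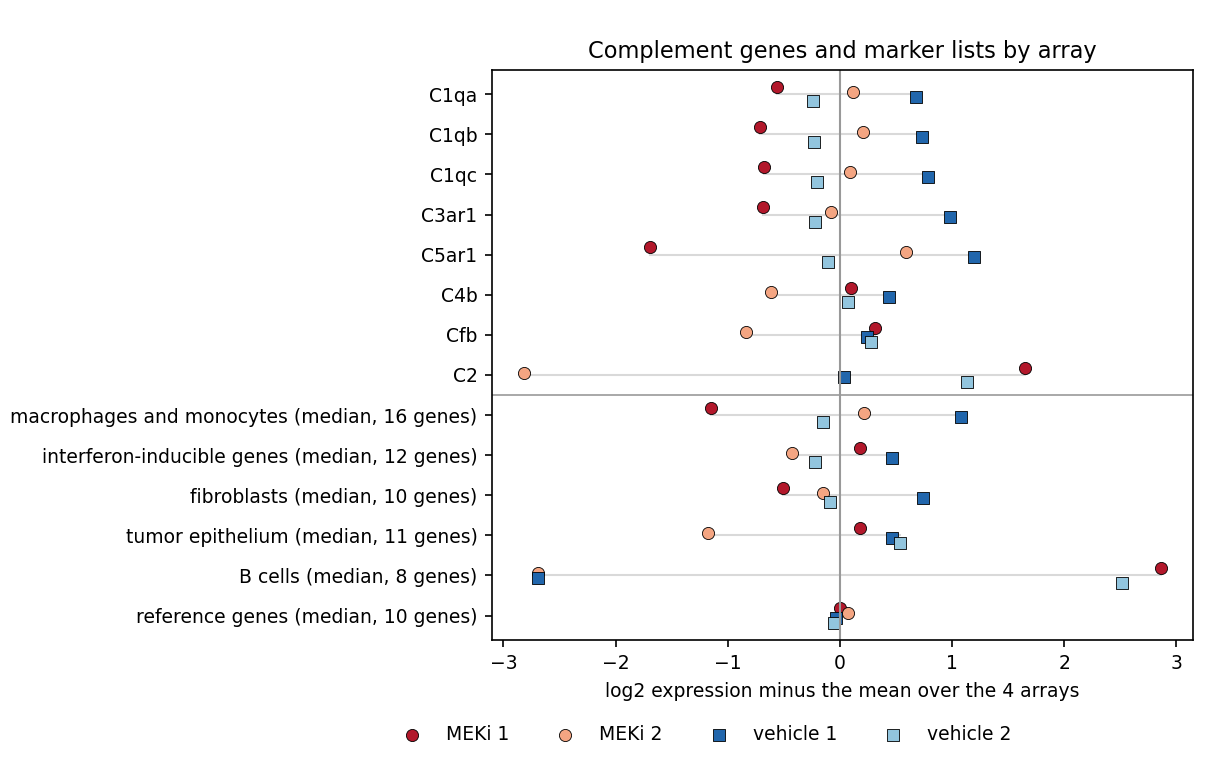
Log2 expression minus the mean over the 4 arrays (horizontal axis) of the 8 complement genes and of the median of 6 marker lists, 1 point per array, with circles for MEKi and squares for vehicle. The C1q chains, C3ar1, C5ar1 and the medians of the macrophage and fibroblast lists have MEKi 1 at the left end and vehicle 1 at the right end. Single fibroblast genes differ, with 5 of 10 lowest in MEKi 2. These are the values as deposited, and MEKi 2 is at the left end for C4b, Cfb and C2.

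Some genes outside complement had nearly the same profile over the 4 arrays. Likeness was measured as the root mean square distance between profiles, each centred on its own mean, over 17050 genes and only 4 arrays. Nearest to the mean of the C1q chains were Lgmn (distance 0.02 log2 units), a lysosomal protease gene, then Cnksr1, Tlr4, Klf10 and Myadm (up to 0.05). Lgmn read 10.65 in MEKi 1 and 11.45 in MEKi 2, against 12.01 in vehicle 1 and 11.05 in vehicle 2. Nearest to C3ar1 was Adgre1 (0.03), which encodes the macrophage surface protein F4/80, followed by Rab3il1, Adgrf5, Shox2 and Slc39a4. Adgre1 read 8.32, 8.94, 9.94 and 8.75. Nearest to C5ar1 were Oaf (0.09), Hmga2, Cbr2, Ccr1 and Dab2 (0.14). Nearest to Cfb was Ifi47 (0.03), an interferon-inducible GTPase gene, which read 12.11 in MEKi 1 and 10.91 in MEKi 2, against 11.97 in vehicle 1 and 12.01 in vehicle 2. It was followed by Cracdl, Notch3, Cnrip1 and Eif4e3 (0.06). Nearest to C4b were Zfp820 (0.04), Zfp947, Creld1, Il4ra and Slc27a3 (0.05). Zfp820 read between 3.47 and 4.43, under the median of every array. Cnksr1 (4.50 to 5.93), Shox2 (4.24 to 5.96), Cracdl (3.99 to 5.15) and Slc27a3 (4.17 to 5.11) were dim as well. Each of these lay under the array median of vehicle 2 (5.12) in that array.

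The rest of the complement system was read from 47 further genes grouped by role, of which 39 were measured. By label, limma called 0 of the 39, and 2 reached an unadjusted p under 0.05. These were Cfp, which encodes the alternative pathway stabiliser properdin (−1.20, SE 0.36, adjusted p = 1), and Hc, which encodes C5 (−1.21, SE 0.41, adjusted p = 1). Over all probe sets 0.901% had such a p. Both MEKi arrays lay above both vehicle arrays in 2 of the 39 (12.1% of all probe sets) and below them in 6 (9.86%), and 18 had a range above 1 log2 unit (22%). In 15 of the 39 all 4 arrays read under the median of every array, among them Mbl2, C8b, C9 and Cpn2, genes made mainly in liver.

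Among the genes that start or extend the cascade, Fcna and Masp1 ran with the C1q chains. Fcna, a ficolin of macrophages, read 8.63 in MEKi 1 and 10.89 in MEKi 2, against 11.34 in vehicle 1 and 9.86 in vehicle 2. Masp1, a protease of the lectin pathway, read 8.42, 10.42, 10.85 and 9.03. C1s1, a protease partner of C1q, had instead the order of Cfb and C2, with 10.37, 8.49, 9.96 and 10.26. Cfp was lowest in MEKi 2 at 8.48 and read 9.32 in MEKi 1, 10.24 in vehicle 1 and 9.96 in vehicle 2. Colec12, a scavenger receptor of the collectin family, was also lowest in MEKi 2 (6.09) and highest in vehicle 1 (7.75). C1ra, the other protease partner of C1q, varied by 0.56. In the terminal pathway C6 read 7.57, 8.75, 9.70 and 7.93, with the order of the C1q chains, and Hc read 5.29, 4.65, 6.59 and 5.77. The other 4 terminal genes measured varied by less than 0.5 log2 units and read under 5 in every array.

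Several regulators of complement differed widely between arrays. Serping1, which encodes the C1 inhibitor, read 11.34 in MEKi 1 and 7.70 in MEKi 2, against 10.86 in vehicle 1 and 11.36 in vehicle 2, so that MEKi 2 lay apart from the other arrays, as it did for C2. Vtn, which encodes vitronectin, read 8.17 in MEKi 1 and 7.70 in vehicle 2, but 4.15 in MEKi 2 and 4.11 in vehicle 1. Cfi, the protease that inactivates C3b, had the same split with 5.55 and 5.42 against 4.22 and 4.42. Cd55, a membrane protein that dissociates the C3-cleaving enzymes, read 8.84, 4.60, 5.52 and 8.45. Clu, which encodes clusterin, was lowest in vehicle 1 (11.66) and lay between 12.55 and 12.91 in the other arrays. Cr1l, which encodes the rodent regulator Crry, varied by 0.38 in its brightest probe set. Its other probe sets varied more, with MEKi 1 and vehicle 2 the higher pair. In MEKi 1, MEKi 2, vehicle 1 and vehicle 2 they read 8.03, 6.39, 6.66 and 7.74, and 4.80, 3.91, 4.30 and 4.85.

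Of the other receptors, Cr2, a complement receptor of B cells and follicular dendritic cells, read 9.35 in MEKi 1 and 4.18 in MEKi 2, against 4.05 in vehicle 1 and 9.51 in vehicle 2. B cell genes had the same split, with Ms4a1 at 12.21, 3.97, 4.15 and 11.61, and so had T cell genes (medians 9.91, 5.24, 6.26 and 9.88) and genes of lymph node stroma and high endothelium (medians 7.45, 3.82, 3.66 and 7.16). Glycam1, a mucin-like protein of high endothelial venules, lay near the floor in MEKi 2 and vehicle 1. The part of these cell types in the Cr2, Cd55, Vtn and Cfi values was not tested. Vsig4, a macrophage receptor for C3b, ran the opposite way with 3.85, 7.22, 6.03 and 4.12. Itgam, the CD11b chain of complement receptor 3, read 5.57, 7.57, 8.65 and 6.34, in the order of the C1q chains. Cd93 read 9.47, 11.36, 11.38 and 10.07 and Lrp1 10.00, 11.63, 11.41 and 10.13, with MEKi 2 and vehicle 1 the higher pair in both. C1qbp and Calr, which encode intracellular proteins that can bind C1q, varied by 0.36 and 0.46.

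**Figure D4:**
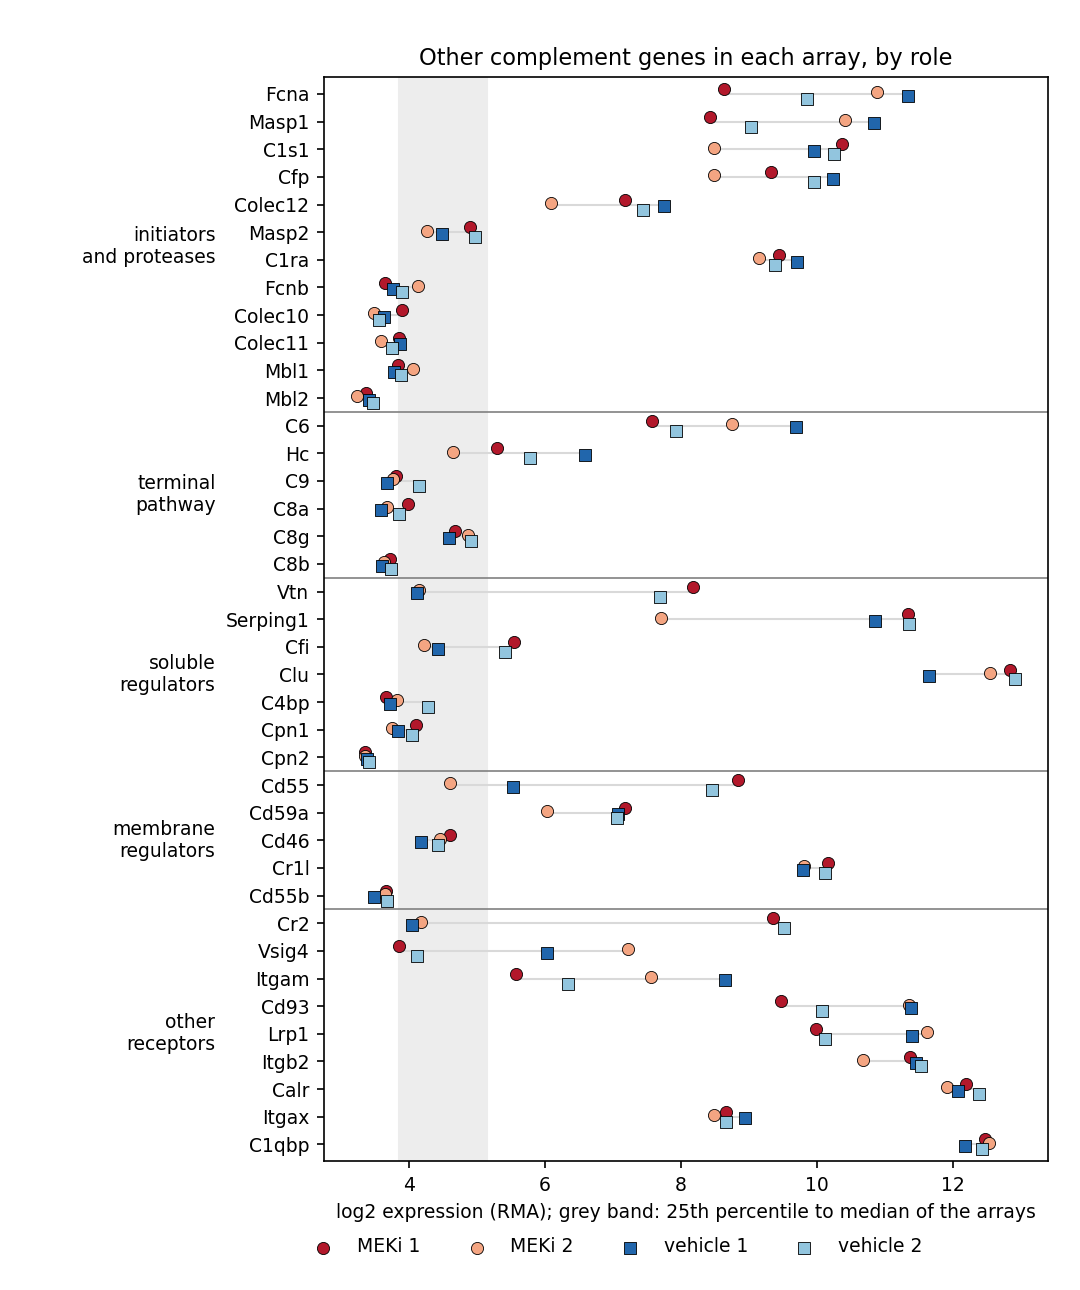
Log2 expression (RMA, horizontal axis) of 39 further complement genes in each array, grouped by role and ordered within a group by range, 1 point per array, with circles for MEKi, squares for vehicle and a grey band from the 25th percentile to the median of the arrays. Cr2, Cd55 and Vtn have MEKi 1 and vehicle 2 on the right, and Serping1 has MEKi 2 alone on the left at 7.70.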

How the data were processed

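Total RNA of 4T1Ch9 tumors from mice given vehicle or MEKi was hybridised to 4 Affymetrix 430PM arrays, 2 for each label. The log2 expression values deposited by the authors come from RMA (submitters' processing notes) with quantile normalization by the AFFY package in R (study's methods), with no filter or pooling stated. After removal of 104 controls, 45037 of 45141 probe sets were tested. The platform annotation gives 28898 of them 1 symbol, 551 more than 1 (left unnamed) and lists none here for 15588. Groups were taken from the labels alone. The label comparison used limma 3.58.1 under R 4.3.3 (two-sided, lmFit then eBayes), with Benjamini-Hochberg adjustment over all tested probe sets. The fit was run on simulated data. Recovery of calls was required there only for a large change with the spread cut far below that observed. That check therefore does not show which changes could be called at the spread of these arrays. Named genes were every member with a probe set, of each other complement list up to 5 genes with the largest range, the 5 genes most like a member profile, and examples of marker lists. Other genes named beside them (Mbl2, C8b, C9, Cpn2, C1ra, Cr1l, C1qbp, Calr, Marco, Mertk and Glycam1) were picked with their values in view. The members and lists were chosen with earlier results of these data known. Alternatives were a stricter adjusted p (0.05), an intensity trend, no moderation, removal of the dimmest share (0.25) of probe sets, centring on reference or tumor epithelial genes, a replicate block, each array left out, and the average over the probe sets of each gene. Quantile normalization forces the arrays to 1 distribution, so a difference is relative to the other probe sets. The number of arrays limits the precision. Tables and figures were made with Python 3.11.15, numpy 2.4.6, pandas 2.3.3 and matplotlib 3.10.9.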

Additional observations from a re-analysis of the deposited data

How the results depend on the processing

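Under 12 alternatives for each, 86 of 96 log2 differences by label of the 8 complement genes kept their sign, 10 changed it and 0 were called (lowest adjusted p = 0.560, limma). That lowest value was for C1qa, centred on tumor epithelial genes. The fit centred in this way gave all 8 genes the same SE (0.89), so its p-values rest on a pooled variance. The 86 include differences whose sign could not change. The stricter adjusted p, the trend, no moderation, removal of dim probe sets and the replicate block leave the difference as it was. So does averaging for genes with 1 probe set. The changes came from centring on tumor epithelial genes or leaving out 1 array. Centring on tumor epithelial genes, which moved the median of all probe sets from 0.01 to 1.01, gave 0.56 for C1qa, 0.50 for C1qb, 0.42 for C1qc, 0.49 for C4b, 0.47 for Cfb and 0.24 for C3ar1, turned the median over the genes to 0.44 and raised the calls over all probe sets from 0 to 7, with 0 complement genes among them. Leaving out 1 array in turn gave ranges of −0.95 to −0.25 for the median, −0.90 to 0.013 for C1qa, −3.40 to 1.07 for C2, −1.10 to 0.051 for Cfb and −2.24 to 0.046 for C5ar1, with 0 calls. Same-numbered arrays deviated from their label means in opposite directions (r = −0.764 across probe sets), so the numbers were not taken as pairs. With the replicate block the calls stayed at 0 over all probe sets, 0 of 8 complement genes and 0 of 39 further ones, and the median stayed at −0.56. With the crossed block (MEKi 1 with vehicle 2), added after seeing the data, the calls were 0, 0 and 0, but 4 of 8 complement genes and 6 of 39 further ones had an unadjusted p under 0.05, with 1447 of 45037 probe sets in all. Without MEKi 1 these numbers were 2, 7 and 2027. The other alternatives left these calls at 0. Array signal limits C2 in MEKi 2 and the second C5ar1 probe set in MEKi 1, which lay under the array median.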
